A study of Homo sapiens with 4 samples.

Results

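In a table of single melanoma cells joined from 4 libraries, each cell name ends in a number from 1 to 4, and the cells ending in 1 (suffix 1) are described here against those ending in 2, 3 and 4. Suffix 1 held 2121 of the 8173 cells, which is 26.0%. The libraries came from the human melanoma line WM239A, labelled poorly metastatic, and from 3 sublines grown out of it: 131/4-5B1 and 131/4-5B2, for which the labels give a high potential to form brain metastases, and 113/6-4L, for which they give a high potential to form lung metastases. Each line gave 1 library, made with a droplet method that reads the 3' end of each captured RNA and counts molecules by unique molecular identifiers (UMIs). No name, label or file tied a suffix to a line, so suffix 1 is called by its number and may be any of the 4 lines. The 3 sublines are subclones of WM239A and the labels name no other cells, so the values compare cultures of 1 melanoma and not tissues. With 1 library per suffix there is no replicate, no test was run, and a difference between lines cannot be told apart from a difference between libraries or cultures.

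Melanoma cells descend from melanocytes, the pigment cells that arise from the neural crest, and cultured lines can sit nearer to the pigmented state or to a poorly differentiated, motile state. Secreted proteases such as MMP1 cut the collagen of the surrounding matrix, and actin-capping and actin-nucleating proteins shape the filaments that move the cell edge. Some melanoma cells also carry major histocompatibility complex (MHC) class II molecules, which elsewhere belong to antigen-presenting immune cells and are switched on by the coactivator CIITA.

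The libraries were alike in depth. Suffix 1 summed to 71617986 UMIs and the other suffixes to 71182648 to 71915542. Median UMIs per cell were 33556 in suffix 1, against 41131, 33152.5 and 33390 in suffixes 2, 3 and 4. The median share of mitochondrial UMIs was 5.41% in suffix 1, against 6.73%, 7.12% and 6.83%. Cells assigned to S or G2M phase made up 65.0% of suffix 1 (95% interval 62.9 to 67.0), against 73.5%, 70.9% and 80.8%. Suffix 1 was thus within the range of the others for depth and lowest for mitochondrial share and for cells in S or G2M. Barcodes found in more than 1 suffix numbered 39, of which 21 included suffix 1. Melanocytic markers (PMEL, MLANA, TYR, DCT, MITF, SOX10 and S100B among those measured) summed to 7945 CPM (UMIs of a gene per 1000000 UMIs of its library) in suffix 1, against 6946, 9873 and 9232 CPM, so all 4 libraries carried the markers of their labelled cell type. Doublets were not called and free RNA was not removed. No cell type that should lack a gene was present to measure free RNA, so low shares of cells with a UMI are given as measured.

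Each suffix was summed to CPM, and a gene was called 2-fold apart when log2(CPM + 1) in suffix 1 lay at least 1 above the highest, or below the lowest, of the other 3. A gene was compared if any suffix had 10 CPM or more, which left 7421. Of these, 75 were 2-fold higher in suffix 1 than in every other suffix (1.01%) and 78 were 2-fold lower (1.05%). By any margin, suffix 1 was the highest of the 4 for 44.9% of genes and the lowest for 27.9%, shares against which the gene groups below are to be read. With TMM scaling, which matches libraries on the bulk of their genes, those shares were 36.1% and 37.3%, so the lean towards higher genes depends on the scaling. Over all genes compared, suffix 1 stood at a median of 0.065 above the median of the others on the log2 scale. Among the higher genes 20 reached 4-fold and 11 reached 8-fold, and among the lower genes 24 and 10 did. Most of them were modest in level, since 56 of the 75 and 59 of the 78 stayed under 50 CPM in every suffix. Of the higher genes, 43 reached 10 CPM through suffix 1 alone and so had to be higher there. Suffix 2 was the nearest library for 43 of the higher and 44 of the lower genes, and without suffix 2 the counts were 144 higher and 120 lower. Leaving out cells with a barcode found in more than 1 suffix gave 75 and 78.

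**Figure D1:**
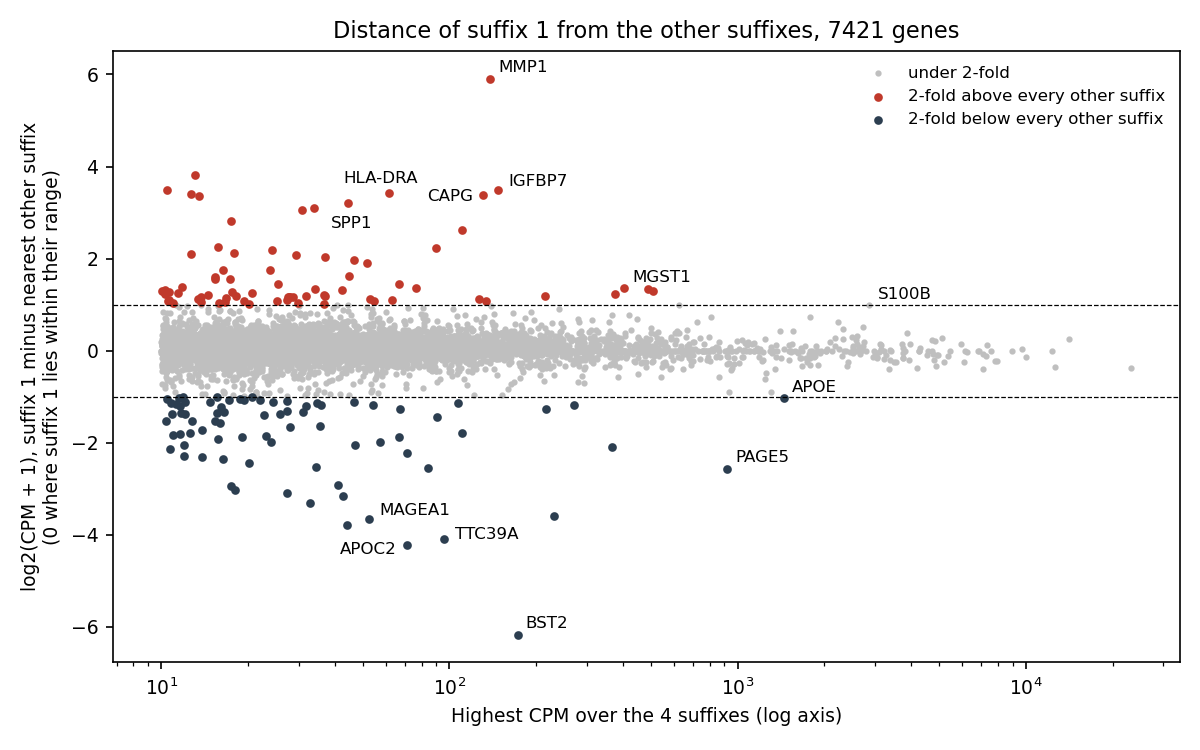
Distance of suffix 1 from the nearest other suffix for each of 7421 genes, as log2(CPM + 1), against the gene's highest CPM over the 4 suffixes on a log axis; genes within the range of the other suffixes are at 0. The 75 red points lie at or above 1 and the 78 dark points at or below -1, with MMP1 the farthest above and BST2 the farthest below.

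MMP1, the interstitial collagenase, stood farthest above the other libraries on the log2(CPM + 1) scale. It had 139 CPM in suffix 1, against 0.0556, 1.27 and 1.32 CPM in suffixes 2, 3 and 4, from 9924 UMIs in suffix 1 against 4, 91 and 94. Its level was 105-fold that of suffix 4, the nearest library (95% interval 85.7 to 130.0, exact and covering counting error only, as for every interval here). The suffix 1 value does not overlap the others, and suffix 2 was close to empty of MMP1. By the plain ratio of CPM, some scarcer genes described below stood farther above. Of 18 secreted and membrane proteases measured, 4 were 2-fold higher in suffix 1 and 0 were 2-fold lower, and 13 were highest and 3 lowest there. Their median difference from the median of the other suffixes was 0.47 on the log2 scale, against 0.065 over all genes. Of the 4, MMP1, FAP and MMP16 reached 10 CPM in suffix 1 alone, so their being higher was fixed by that minimum; among the 15 members that reached it in another library, 1 was 2-fold higher, 10 were highest and 3 lowest. FAP, a membrane serine protease best known from activated fibroblasts, had 15.4 CPM in suffix 1, against 2.07, 3.86 and 4.44 CPM in suffixes 2, 3 and 4. MMP16, a membrane-anchored metalloprotease, had 10.3 CPM, against 3.81, 2.20 and 2.32 CPM in the same order. PRSS23, a secreted serine protease, had 36.6 CPM, against 15.4, 15.1 and 14.4 CPM. These 3 were therefore separated from the other libraries by far less than MMP1. Of 10 protease inhibitors none was 2-fold apart, and 5 were highest in suffix 1. SERPINE2, an inhibitor of thrombin and plasminogen activators, had 722 CPM in suffix 1, against 417, 466 and 454 CPM in suffixes 2, 3 and 4. TIMP1, an inhibitor of matrix metalloproteases that include MMP1, had 624 CPM, against 478, 393 and 406 CPM. The nearest library for SERPINE2 was suffix 3 and for TIMP1 suffix 2.

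IGFBP7, a secreted protein that binds insulin and insulin-like growth factors, had 148 CPM in suffix 1, against 6.86, 9.76 and 12.3 CPM in suffixes 2, 3 and 4, which is 12.1-fold suffix 4 (95% interval 11.2 to 12.9). It was the 1 member of 8 measured in the growth factor axis that was 2-fold higher, and 0 were 2-fold lower. IGFBP3, a carrier of insulin-like growth factors, stood below the other libraries at 10.8 CPM, against 22.2, 31.6 and 23.1 CPM, just under the 2-fold mark on the log2(CPM + 1) scale. IGFBP2, another carrier, had 119.6 CPM in suffix 1, against 153, 386 and 325 CPM in suffixes 2, 3 and 4. The binding proteins therefore did not stand on 1 side of the other libraries.

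CAPG, which caps the fast-growing ends of actin filaments, had 131 CPM in suffix 1, against 11.6, 7.22 and 4.02 CPM in suffixes 2, 3 and 4. That is 11.3-fold suffix 2 (95% interval 10.5 to 12.1), and the other 3 libraries were spread among themselves. FMN2, a formin that starts straight actin filaments, had 110.2 CPM in suffix 1, against 16.96, 14.2 and 13.6 CPM in suffixes 2, 3 and 4, or 6.50-fold suffix 2. RND3, a small GTPase that opposes RhoA, had 66.9 CPM, against 19.98, 23.7 and 22.6 CPM. TMSB4X, which holds actin monomers, went the other way at 468 CPM, against 1302, 878 and 872 CPM, under the 2-fold mark. CAPG, FMN2 and RND3 were the 3 of 40 measured actin regulators that were 2-fold higher, 0 were 2-fold lower, and the list's median of 0.07 lay beside the 0.065 of all genes.

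**Figure D2:**
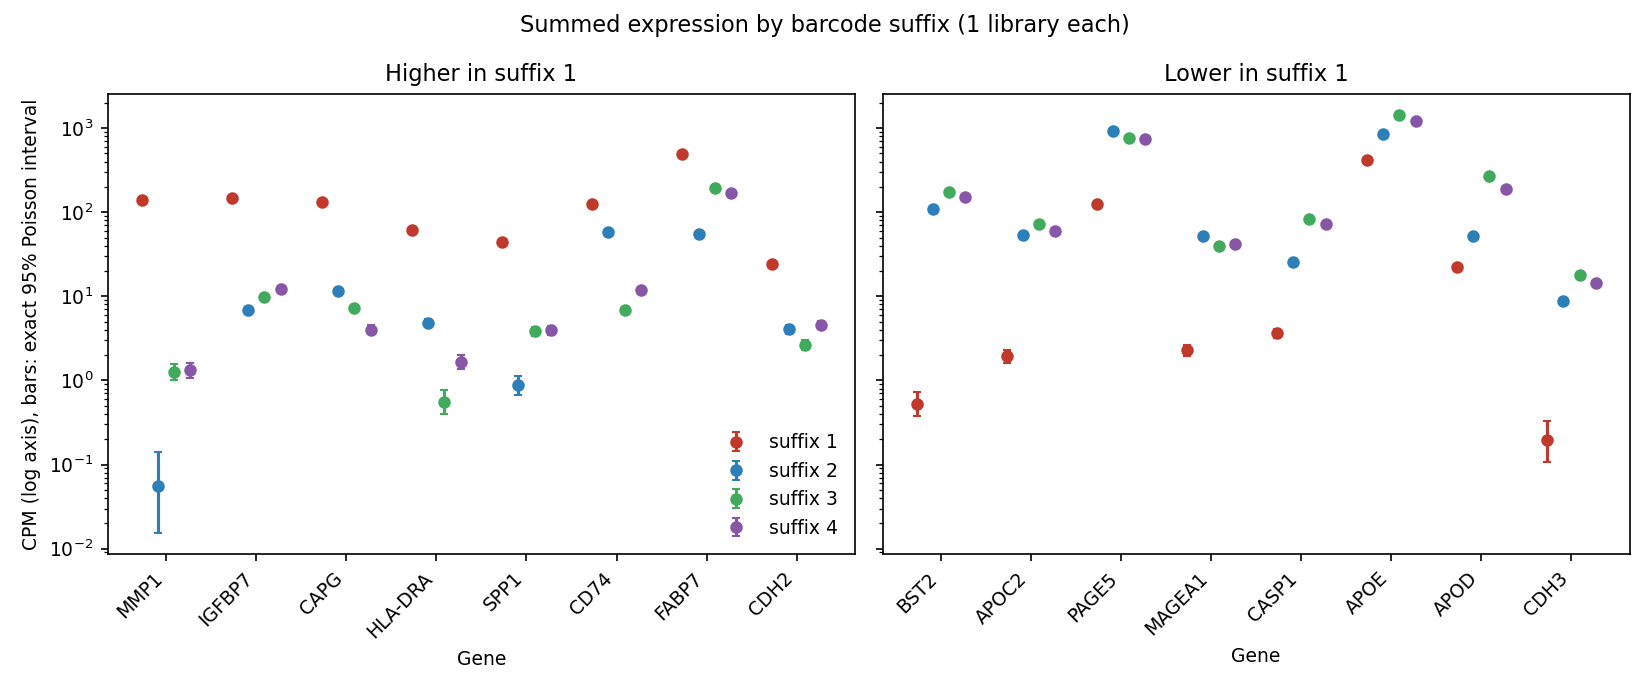
CPM on a log axis for 8 genes higher (left) and 8 lower (right) in suffix 1, with 1 point per suffix in the order 1 to 4 and exact 95% Poisson intervals. Suffix 1 lies above every other point for each gene on the left, with MMP1 at 139 CPM, and below every other point for each gene on the right, with BST2 at 0.531 CPM.

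Further genes far above the other libraries came from several pathways. SPP1 (osteopontin), a secreted matrix phosphoprotein, had 44.4 CPM in suffix 1, against 0.876, 3.85 and 3.93 CPM in suffixes 2, 3 and 4, or 11.3-fold suffix 4. BCHE, a cholinesterase, had 33.8 CPM, against 3.07, 0.196 and 0.281 CPM, and C1QTNF3, a secreted protein with a C1q-like domain, had 30.7 CPM, against 2.84, 0.420 and 0.562 CPM. For both, suffix 2 stood between suffix 1 and the near-empty suffixes 3 and 4. TAF7, a subunit of the general transcription factor TFIID, had 29.4 CPM, against 5.81, 6.16 and 4.51 CPM. MFI2, the iron-binding surface protein melanotransferrin, had 51.6 CPM, against 12.8, 12.9 and 10.5 CPM. PDLIM2, a protein with PDZ and LIM domains, had 37.1 CPM, against 8.25, 5.011 and 4.90 CPM. These 3 and TCTEX1D2, a dynein light chain (46.6 CPM, against 11.2, 6.83 and 7.04 CPM), were close to 4-fold or more above their nearest library. Larger changes of level in CPM were carried by genes that every library expressed. MFSD12, a lysosomal membrane protein of pigment cells, had 509 CPM in suffix 1, against 205, 174 and 177 CPM in suffixes 2, 3 and 4. PRNP, the prion protein gene, had 376 CPM, against 129.7, 151 and 158 CPM. HMG20B, a chromatin protein, had 214 CPM, against 93.3, 85.6 and 85.4 CPM. All 3 were more than 2-fold above the nearest library. PMAIP1, a BH3-only cell death protein, had 54.8 CPM, against 22.96, 25.5 and 22.3 CPM, and CD200, a ligand of an inhibitory immune receptor, had 27.97 CPM, against 11.9, 11.6 and 11.2 CPM.

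Several genes were seen almost nowhere else, at lower levels. LXN (latexin), an inhibitor of carboxypeptidases, had 750 UMIs in suffix 1 and 1 UMI in each of suffixes 2, 3 and 4, a ratio of 745 with a counting interval from 133 to 29482. PMP2, a lipid-binding protein of peripheral myelin, had 13.5 CPM, against 0.209, 0.406 and 0.295 CPM, or 33.3-fold suffix 3 (95% interval 23.1 to 50.04). TRIML2, a tripartite motif family-like gene, had 12.6 CPM, against 0.0417, 0.280 and 0.0702 CPM. The clone-named gene RP11-51M18.1 had 937 UMIs in suffix 1 and 0 in the other 3, which is at least 310.4-fold higher against a floor of 3 counts per library. SLC30A10, a manganese exporter, had 17.4 CPM, against 1.18, 1.36 and 1.62 CPM. Each of these reached 10 CPM in suffix 1 only.

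Several genes of the MHC class II pathway stood far above the other libraries. Of 7 measured members 5 were 2-fold higher in suffix 1 and 0 were 2-fold lower, with a median of 2.93 on the log2 scale against 0.065 over all genes. HLA-DRA, HLA-DPB1 and HLA-DMA reached 10 CPM in suffix 1 alone and so had to be higher there, and the median rests on them; of the other 4 members, HLA-DPA1 and CD74 were 2-fold higher, with a median of 1.43 over the 4. HLA-DRA, the alpha chain of the DR molecule, had 61.5 CPM in suffix 1, against 4.85, 0.560 and 1.66 CPM in suffixes 2, 3 and 4, or 12.7-fold suffix 2 (95% interval 11.4 to 14.2). HLA-DPA1 and HLA-DPB1 encode both chains of the DP molecule. HLA-DPA1 had 53.2 CPM in suffix 1, against 23.8, 5.43 and 6.56 CPM in suffixes 2, 3 and 4, and HLA-DPB1 had 15.7 CPM, against 2.49, 0.462 and 1.19 CPM. HLA-DMA, a chain of the DM molecule that helps load peptides, had 17.8 CPM, against 3.32, 0.448 and 0.773 CPM. CD74, the invariant chain that escorts class II molecules, had 126 CPM in suffix 1, against 57.6, 6.79 and 11.9 CPM in suffixes 2, 3 and 4. In all 5 genes suffix 2 was the nearest library and suffixes 3 and 4 lay below it. The regulators RFX5 and RFXANK lay within the range of the other libraries, and below it with TMM scaling. Under 10 CPM, CIITA had 48 UMIs in suffix 1, against 12, 8 and 8 in suffixes 2, 3 and 4. HLA-DRB1 had 22 UMIs, against 12, 1 and 3, although reads of this variable gene can be lost or split among near-identical copies. HLA-DMB, the other DM chain, had 5.96 CPM in suffix 1 and 5.69 CPM in suffix 2, against 0.938 and 1.04 CPM in suffixes 3 and 4.

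Class II genes are known to share a promoter element, the Y box, whose core is the letters ATTGG, and the promoters of 3 of the class II genes that were 2-fold higher are shown because the letters were found in them. The sequences are RefSeq's on GRCh38.p14, 250 bases before to 50 after the gene's start, 5′ to 3′ on the gene's strand, with ATTGG or its reverse complement CCAAT in capitals. They lie at chr6:32953048-32953347 (minus strand, HLA-DMA), chr6:33075740-33076039 (plus strand, HLA-DPB1) and chr5:150412861-150413160 (minus strand, CD74).
HLA-DMA: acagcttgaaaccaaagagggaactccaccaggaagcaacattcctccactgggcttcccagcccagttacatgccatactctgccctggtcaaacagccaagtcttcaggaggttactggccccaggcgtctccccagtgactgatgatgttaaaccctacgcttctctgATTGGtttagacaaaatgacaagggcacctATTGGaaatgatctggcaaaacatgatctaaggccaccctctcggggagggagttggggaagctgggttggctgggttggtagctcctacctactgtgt
HLA-DPB1: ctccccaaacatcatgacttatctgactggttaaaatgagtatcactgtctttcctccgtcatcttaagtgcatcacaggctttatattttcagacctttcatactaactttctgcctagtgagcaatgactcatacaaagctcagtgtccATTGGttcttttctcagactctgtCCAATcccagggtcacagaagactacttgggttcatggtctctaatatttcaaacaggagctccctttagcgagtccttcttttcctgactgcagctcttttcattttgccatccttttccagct
CD74: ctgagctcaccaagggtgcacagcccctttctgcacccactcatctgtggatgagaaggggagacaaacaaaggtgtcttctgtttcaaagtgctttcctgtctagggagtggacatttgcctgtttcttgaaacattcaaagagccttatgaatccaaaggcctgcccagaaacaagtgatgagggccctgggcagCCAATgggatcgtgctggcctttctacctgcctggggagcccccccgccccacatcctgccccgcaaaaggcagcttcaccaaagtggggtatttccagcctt
In HLA-DMA the letters began 79 and 49 bases before the start. In HLA-DPB1 they began 99 bases before it, with the reverse complement 75 bases before it. In CD74 the reverse complement began 53 bases before the start. Of 35116 promoters of the same length, 34.6% hold ATTGG on either strand, so the letters are common. Of the 7 measured class II members 6 had a promoter entry, and 4 of the 6 held the letters. The fourth was RFX5, which was within the range of the other libraries, and HLA-DPA1, which was 2-fold higher, had an entry without the letters. The match describes these windows and says nothing of the factors that bind there.

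MHC class I and interferon-stimulated genes, which often move with class II genes, did not stand on the same side. Of 13 class I pathway members measured, none was 2-fold apart, 10 were lowest in suffix 1 and 1 was highest, with a median of -0.46. HLA-C, a class I heavy chain, had 146 CPM in suffix 1, against 238, 275 and 292 CPM in suffixes 2, 3 and 4. HLA-B, another heavy chain, had 81.01 CPM, against 140.2, 168 and 131 CPM. PSMB8, a subunit of the immunoproteasome that cuts peptides for class I, had 62.1 CPM, against 115, 105 and 106 CPM. In each, suffix 1 lay below all 3 other libraries by less than 2-fold. Of 13 interferon-stimulated genes, 1 was 2-fold lower, 0 were 2-fold higher, and 8 were lowest in suffix 1, with a median of -0.36. That 1 gene was BST2 (tetherin), a membrane protein that holds budding virus particles at the cell surface. BST2 had 0.531 CPM in suffix 1, against 109, 172 and 151 CPM in suffixes 2, 3 and 4, from 38 UMIs against 7835, 12307 and 10769. Its level in suffix 2, the nearest library, was 205-fold that in suffix 1 (95% interval 149 to 290.4). No other interferon-stimulated gene measured came near this: IFI6, ISG20 and UBE2L6, the next farthest below, differed from the nearest library by 1.38-, 1.26- and 1.30-fold.

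The promoter of BST2 is shown because BST2 was the gene farthest below and because interferon-stimulated genes are known to carry the response element GAAANNGAAA. The BST2 promoter lies at chr19:17405581-17405880 on the minus strand of GRCh38.p14, from RefSeq, and is written as above with the element in capitals.
BST2: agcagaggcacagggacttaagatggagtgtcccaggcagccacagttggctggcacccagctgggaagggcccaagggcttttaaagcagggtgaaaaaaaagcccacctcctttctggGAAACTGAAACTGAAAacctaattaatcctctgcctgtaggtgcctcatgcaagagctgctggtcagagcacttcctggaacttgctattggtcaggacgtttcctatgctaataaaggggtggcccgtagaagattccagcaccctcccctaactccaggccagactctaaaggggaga
Copies of the element began 130 and 124 bases before the start and overlap each other. Of 35116 promoters, 3.57% hold the element on either strand. Of the 13 measured interferon-stimulated genes 12 had a promoter entry, and 8 of the 12 held it. The match gives no reading of which factor acts in these cells.

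Apolipoproteins, the protein coats of lipid particles, were lower. Of 13 measured members of the lipid transport list 4 were 2-fold lower and 1 was 2-fold higher, with a median of -0.34. APOC2, the activator of lipoprotein lipase, had 1.93 CPM in suffix 1, against 53.9, 71.5 and 59.3 CPM in suffixes 2, 3 and 4, 27.98-fold below suffix 2 (95% interval 23.6 to 33.4). APOC1, which lies in the same cluster on chromosome 19, had 67.5 CPM, against 291, 367 and 303 CPM. APOE, the lipoprotein receptor ligand of that cluster, had 412 CPM, against 846, 1444 and 1210.3 CPM, 2.05-fold below suffix 2. APOD, a lipocalin encoded on chromosome 3, had 22.2 CPM, against 51.8, 270.4 and 191 CPM. For APOE and APOD the gap between suffix 2 and suffixes 3 and 4 was also wide, so suffix 1 extends an order in which suffix 2 is next. The 1 higher member was FABP7, the fatty acid-binding protein of glial precursors, with 487 CPM in suffix 1, against 55.3, 192 and 168 CPM in suffixes 2, 3 and 4. Its lowest library was suffix 2 and not suffix 3 or 4.

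Cancer-testis antigens, genes normally confined to germ cells, were 2-fold higher for 1 of 9 measured and 2-fold lower for 2. The higher one, MAGEA6, reached 10 CPM in suffix 1 alone and so had to be higher there. Of the 8 that reached it in another library, 0 were 2-fold higher and 2 were 2-fold lower. Among those 8, 3 were highest and 3 lowest in suffix 1, with a median of -1.31. PAGE5 had 126 CPM in suffix 1, against 919, 769 and 747 CPM in suffixes 2, 3 and 4, 5.93-fold below suffix 4 (95% interval 5.80 to 6.07). MAGEA1 had 2.28 CPM, against 52.4, 40.1 and 41.4 CPM, 17.6-fold below suffix 3. MAGEA6 was higher at 13.4 CPM, against 3.87, 4.70 and 5.58 CPM, although its reads are hard to part from the near-identical MAGEA3 (119 CPM, against 84.02, 80.3 and 84.8 CPM). Outside the lists, GTSF1, which acts in piRNA silencing in germ cells, had 4 UMIs in suffix 1 and 13.6, 44.03 and 39.1 CPM in suffixes 2, 3 and 4. TTC39A, a tetratricopeptide repeat gene, had 1.23 CPM, against 37.2, 95.9 and 76.8 CPM. PYROXD2, a pyridine nucleotide-disulphide oxidoreductase, had 4.31 CPM, against 62.7, 229.8 and 218 CPM. For these 3 genes suffixes 3 and 4 were 2-fold or more above suffix 2, with suffix 1 lower still. TUBA3C, an alpha-tubulin with near-identical copies that reads may be split among, had 2.49 CPM, against 30.3, 36.5 and 42.6 CPM.

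Of 10 measured cytokine and NF-kB genes 1 was 2-fold lower and 0 were 2-fold higher. In this list 3 were highest and 3 lowest in suffix 1, with a median of 0.18 against 0.065 over all genes. The list as a whole was therefore not lower, and the genes named here are those on the lower side. The lower one was CASP1, the inflammatory caspase that matures interleukin-1 beta, with 3.63 CPM in suffix 1, against 25.9, 84.02 and 73.2 CPM in suffixes 2, 3 and 4. PYCARD, the adaptor that brings CASP1 into inflammasomes, had 129 CPM, against 206, 192 and 187 CPM. SIGIRR, a receptor that dampens interleukin-1 signalling, had 10.7 CPM, against 45.2, 57.3 and 51.5 CPM. CASP1 and SIGIRR passed 2-fold and PYCARD did not. SLAMF1, a lymphocyte co-receptor, had 0.154 CPM, against 16.4, 5.60 and 4.92 CPM. LCP2, a signalling adaptor of blood cells, had 1.20 CPM, against 11.96, 9.85 and 9.71 CPM. CCL3, a chemokine, had 0.349 CPM, against 2.88, 10.4 and 9.16 CPM, and CD70, a ligand of the tumour necrosis factor family, had 2.58 CPM, against 15.9, 11.4 and 9.57 CPM. SLAMF1, LCP2, CCL3 and CD70 were named after their values were seen. Other genes well below every library were PXDN, a peroxidase that cross-links collagen IV (1.03 CPM, against 16.4, 26.2 and 27.4 CPM), and SFRP1, a secreted WNT antagonist (22.9 CPM, against 81.3, 111 and 107 CPM). ANXA3, a calcium-dependent membrane-binding annexin, had 8.84 CPM, against 39.5, 46.96 and 43.8 CPM. MYEOV, a gene named from an overexpressed locus in myeloma, had 13.9 CPM, against 71.3, 68.2 and 68.8 CPM.

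Genes that mark melanoma state were split. Of 26 melanocytic differentiation genes 9 were highest and 9 lowest in suffix 1, with 1 2-fold higher and 2 lower. PMEL, the fibril protein of the pigment granule, had 2201 CPM in suffix 1, against 2766, 4883 and 4496 CPM in suffixes 2, 3 and 4, and SOX10, the lineage transcription factor, had 70.4 CPM, against 58.2, 61.5 and 65.4 CPM. CITED1, a transcriptional coregulator that reached 10 CPM in suffix 1 alone and so had to be higher there, was the higher one at 23.8 CPM, against 6.31, 4.90 and 4.71 CPM. Of the 25 melanocytic members that reached it in another library, 0 were 2-fold higher and 2 were 2-fold lower. Among those 25, 8 were highest and 9 lowest in suffix 1, with a median of -0.13. TYRP1, an enzyme of melanin synthesis that stayed under 10 CPM, had 9.37 CPM in suffix 1, against 0.195, 0.896 and 0.576 CPM. In the list of undifferentiated or invasive melanoma genes 10 of 11 measured members were highest in suffix 1, 2 were 2-fold higher and 0 lower, with a median of 0.71. Both 2-fold members, TWIST1 and CTGF, reached 10 CPM in suffix 1 alone and so had to be higher there; of the 9 members that reached it in another library, 0 were 2-fold apart and 8 were highest, with a median of 0.68. TWIST1, a transcription factor of mesenchymal cells, had 19.3 CPM, against 8.69, 6.87 and 6.87 CPM, and CTGF, a matricellular protein, had 15.9 CPM, against 7.27, 2.80 and 3.15 CPM. CTGF fell under the 2-fold mark with TMM scaling, at a log2 difference of 0.96. NT5E, the surface enzyme that makes adenosine, had 44.1 CPM, against 22.5, 27.1 and 28.3 CPM, and TGFBI, a matrix protein, had 83.5 CPM, against 52.6, 31.2 and 42.7 CPM. AXL, the receptor tyrosine kinase often used to mark this state, was scarce, with 83 UMIs in suffix 1, against 8, 1 and 1. Of the 12 members with counts that stayed under 10 CPM in every library, 8 were highest and 3 lowest in suffix 1. The 3 lowest were TCF4, a helix-loop-helix factor, ZEB1, a repressor of epithelial cadherins, and WNT5A, a secreted WNT ligand. TCF4 had 7 UMIs in suffix 1, against 288, 440 and 441, and ZEB1 had 7 UMIs, against 83, 238 and 200. WNT5A had 10 UMIs, against 76, 27 and 28. The scarce members of the list thus stood on both sides.

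Neural crest and Schwann cell genes were 2-fold higher for 4 of 17 measured members and 2-fold lower for 1, and 3 of the 4 (TWIST1, PMP2 and CDH19) reached 10 CPM in suffix 1 alone. CDH19, a cadherin of Schwann precursors, had 16.7 CPM in suffix 1, against 5.52, 7.05 and 6.15 CPM in suffixes 2, 3 and 4. NES (nestin), an intermediate filament of progenitors, was the lower one at 3.16 CPM, against 10.9, 9.74 and 9.76 CPM. NGFR, the low-affinity neurotrophin receptor, stayed under 10 CPM with 8.08 CPM in suffix 1, against 0.431, 0.126 and 0.197 CPM. Of 8 measured cadherins and protocadherins 2 were 2-fold higher and 1 was 2-fold lower, with 4 highest and 4 lowest in suffix 1. CDH2 (N-cadherin) had 24.1 CPM, against 4.06, 2.63 and 4.52 CPM, or 5.34-fold suffix 4, and CDH3 (P-cadherin) had 0.195 CPM, against 8.68, 17.97 and 14.3 CPM, 44.4-fold below suffix 2. CDH2, like CDH19, reached 10 CPM in suffix 1 alone and so had to be higher there. Of the 6 cadherins and protocadherins that reached it in another library, 0 were 2-fold higher and 1 was 2-fold lower. Integrins ITGA4 and ITGA3, which pair with beta chains to hold matrix, were the 2 of 17 measured integrins and tetraspanins that were 2-fold higher, at 27.6 CPM, against 11.8, 7.29 and 9.05 CPM for ITGA4 and 10.5 CPM, against 4.24, 3.98 and 4.43 CPM for ITGA3, which reached 10 CPM in suffix 1 alone.

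Metabolic and stress groups differed by small amounts. Of 18 hypoxia response genes none was 2-fold apart, 13 were highest in suffix 1, and the median was 0.32. Of 19 glycolysis genes 14 were highest, with a median of 0.20; PKM, the last kinase of glycolysis, had 2224 CPM in suffix 1, against 1348, 1431 and 1433 CPM in suffixes 2, 3 and 4. Nuclear-encoded oxidative phosphorylation genes lay at a median of -0.03, with 6 of 33 highest and 14 lowest, and the 12 mitochondrially encoded genes at -0.32. Glycolysis and oxidative phosphorylation genes thus lay on different sides of the all-gene median. Cholesterol synthesis genes lay at -0.22, with 12 of 21 lowest. Amino acid and ER stress genes were highest in suffix 1 for 18 of 26, with a median of 0.38, and 1 was 2-fold higher. That was SLC7A11, the cystine importer, with 18.2 CPM, against 3.25, 7.46 and 2.35 CPM. SLC7A11 reached 10 CPM in suffix 1 alone and so had to be higher there. Of the 24 members that reached it in another library, 0 were 2-fold apart, 16 were highest and 1 was lowest, with a median of 0.31. Suffix 3 lay between suffix 1 and the other libraries for SLC7A11. Among 33 redox enzymes 2 were 2-fold higher and 1 lower. MGST1, a membrane glutathione transferase, had 404 CPM in suffix 1, against 155, 125 and 157 CPM in suffixes 2, 3 and 4, and ALDH1A1, which oxidises retinal, had 15.3 CPM, against 4.53, 4.24 and 4.20 CPM. ALDH1A1 reached 10 CPM in suffix 1 alone and so had to be higher there. Of the 32 redox enzymes that reached it in another library, 1 was 2-fold higher and 1 lower. MT1E, a metal-binding metallothionein, had 36.9 CPM, against 15.7, 11.4 and 9.22 CPM. S100B, a calcium-binding protein of melanocytic cells, came close to the mark at 2864 CPM, against 1445, 1315 and 1283 CPM. The share of mitochondrial UMIs and of cells in S or G2M were both lowest in suffix 1, and their part in the values of these groups was not tested. The mitochondrial share is made up of the mitochondrially encoded genes, so it is no separate measure beside that group.

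Markers of other cell types were mostly absent or shared by all libraries. Of the fibroblast markers, LUM (12.7 CPM, against 2.18, 0.182 and 0.407 CPM) and FAP reached 10 CPM, in suffix 1 alone, and so had to be higher there. The whole list of 7 with counts summed to 29.7 CPM, against 4.83, 4.53 and 5.20 CPM. Its defining collagen COL1A1 had 0 UMIs in suffix 1 and 2, 1 and 2 in the others, and DCN had 68 UMIs, against 0, 1 and 1. Lymphocyte markers were not measured at 10 CPM in any library and summed to 0.321 CPM in suffix 1. Of the myeloid markers 2 were measured, FCER1G was 2-fold lower (9.75 CPM, against 67.1, 24.8 and 25.3 CPM), and CD14 had 0 UMIs in suffix 1. Glial markers, which neural crest-derived cells also express, summed to 629.95 CPM, against 339, 314 and 306 CPM. Whether other cells had a part in any gene's level was not tested.

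The genes also differed in how they were spread over cells. After every cell was thinned to 10000 UMIs (6, 1, 1 and 1 cells of suffixes 1 to 4 were shallower and left out), MMP1 was seen in 41.8% of suffix 1 cells, against 0.0562%, 0.748% and 0.938% of suffix 2, 3 and 4 cells. Without thinning, the suffix 1 share was 64.6%. If its UMIs had been spread evenly over cells by depth, 74.04% of suffix 1 cells would show it, and the 10% of cells with most MMP1 held 61.3% of its UMIs. MMP1 was thus concentrated in some of the suffix 1 cells. HLA-DRA was seen in 29.7% of suffix 1 cells, against 2.98%, 0.655% and 1.69% of suffix 2, 3 and 4 cells, and 46.7% would show an even spread. CAPG was seen in 50.6% of suffix 1 cells, against 8.10%, 4.49% and 3.33% of suffix 2, 3 and 4 cells, against 72.7% for an even spread in suffix 1. BCHE came close to an even spread, seen in 29.9% of suffix 1 cells where 31.5% would be even, and so did FMN2 at 62.3% against 68.9%. MGST1 was seen in 88.2% of suffix 1 cells, against 68.4%, 56.2% and 65.1% of suffix 2, 3 and 4 cells. Among lower genes, BST2 was seen in 0.567% of suffix 1 cells, against 60.6%, 79.1% and 75.3% of suffix 2, 3 and 4 cells. Its near-absence therefore covered almost all suffix 1 cells. PAGE5 was different, seen in 38.96% of suffix 1 cells, against 99.9%, 99.9% and 99.9% of suffix 2, 3 and 4 cells, where 72.5% of suffix 1 cells would show an even spread. PAGE5 was thus seen in some suffix 1 cells while most showed none at this depth.

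**Figure D3:**
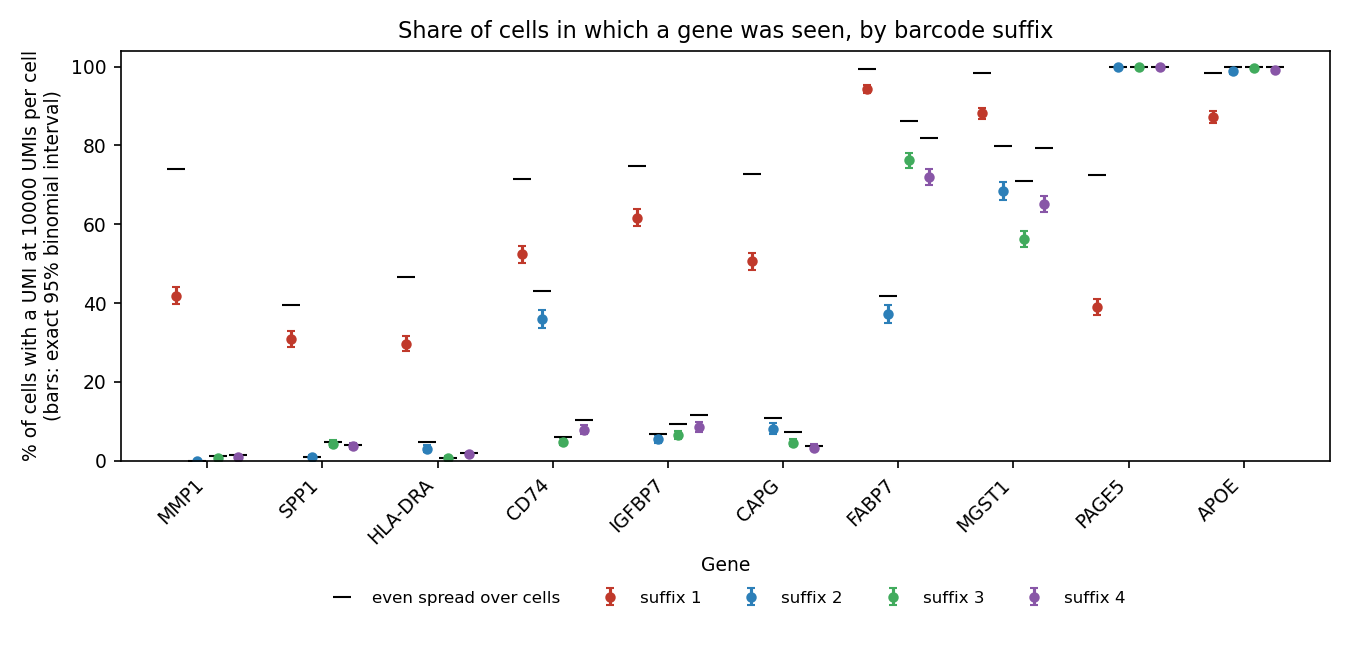
Percent of cells with at least 1 UMI after thinning to 10000 UMIs per cell for 10 genes, with 1 point per suffix, exact 95% binomial intervals, and a black dash at the share an even spread over cells would give. Suffix 1 lies below its dash for MMP1 (41.8% against 74.04%) and PAGE5 (38.96% against 72.5%), while PAGE5 was seen in nearly every cell of suffixes 2, 3 and 4.

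Within suffix 1, HLA-DRA was seen more often in cells that showed another class II gene than in cells that did not. HLA-DRA was seen in 43.6% (95% interval 40.7 to 46.6) of the 1107 cells with CD74 and in 14.4% (12.3 to 16.7) of the 1008 cells without it. HLA-DRA was also seen in 55.5% of 661 cells with HLA-DPA1 and in 17.95% of 1454 without. MMP1 and CAPG, both far above the other libraries, went apart: MMP1 was seen in 33.4% (30.6 to 36.3) of 1071 cells with CAPG and in 50.5% (47.4 to 53.6) of 1044 cells without. PAGE5 was seen in 46.4% of cells with CAPG and 31.3% without. MMP1 was seen in 45.6% of cells with SPP1 and 40.2% without, and IGFBP7 in 61.9% of cells with CAPG and 61.5% without. These shares describe cells of 1 library, which are not replicates.

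The distance of suffix 1 from the other libraries also followed chromosomes. Of the 7421 genes 7237 (97.5%) could be placed by symbol, and each chromosome's median difference was set against the median of all placed genes. Chromosome 8 stood highest, at 0.29 on the log2 scale, with suffix 1 the highest library for 81.1% of its 254 genes, against 44.9% over all genes. Chromosomes 10 and 13 stood lowest, at -0.33 and -0.31, with suffix 1 the lowest library for 77.3% of 247 and 78.8% of 113 genes, against 27.9% over all genes. For these 3 chromosomes the difference had the same sign against each other library; for chromosome 8 it was 0.36, 0.24 and 0.30 against suffixes 2, 3 and 4. Chromosome 19 lay at -0.29, and here suffix 2 was nearer, with -0.12 against suffix 2, -0.33 against suffix 3 and -0.30 against suffix 4. Of the 423 genes of chromosome 19, 10 were 2-fold lower and 4 were 2-fold higher, against 1.05% and 1.01% over all genes. BST2, APOC1, APOC2 and APOE are among the 10, and MFSD12 and HMG20B are among the 4. Chromosomes 5, 1, 11 and 4 lay at -0.20, -0.17, -0.14 and -0.09. Chromosome 18 changed sign by library, with 0.10 against suffix 2, -0.16 against suffix 3 and -0.21 against suffix 4. The spread of medians from the lowest to the highest chromosome was 0.70, 0.56 and 0.63 for suffix 1 minus suffixes 2, 3 and 4, and 0.097 for suffix 3 minus suffix 4. For suffix 2 it was 0.49 minus suffix 3 and 0.47 minus suffix 4, so a wide spread was not particular to suffix 1. With each chromosome's median set to 0, 64 genes were 2-fold higher and 89 lower, of which 63 and 74 were among the 75 and 78. That step also removes the offset between whole libraries, and TMM scaling alone gave the same 64 and 89. These counts therefore do not isolate the part of the chromosomes. No chromosome median exceeded 0.33 in size against the median of the others. Against single libraries the largest was the 0.36 of chromosome 8 against suffix 2. A gene 2-fold apart thus lies beyond its chromosome's median by construction. What lies behind the chromosome medians was not tested.

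**Figure D4:**
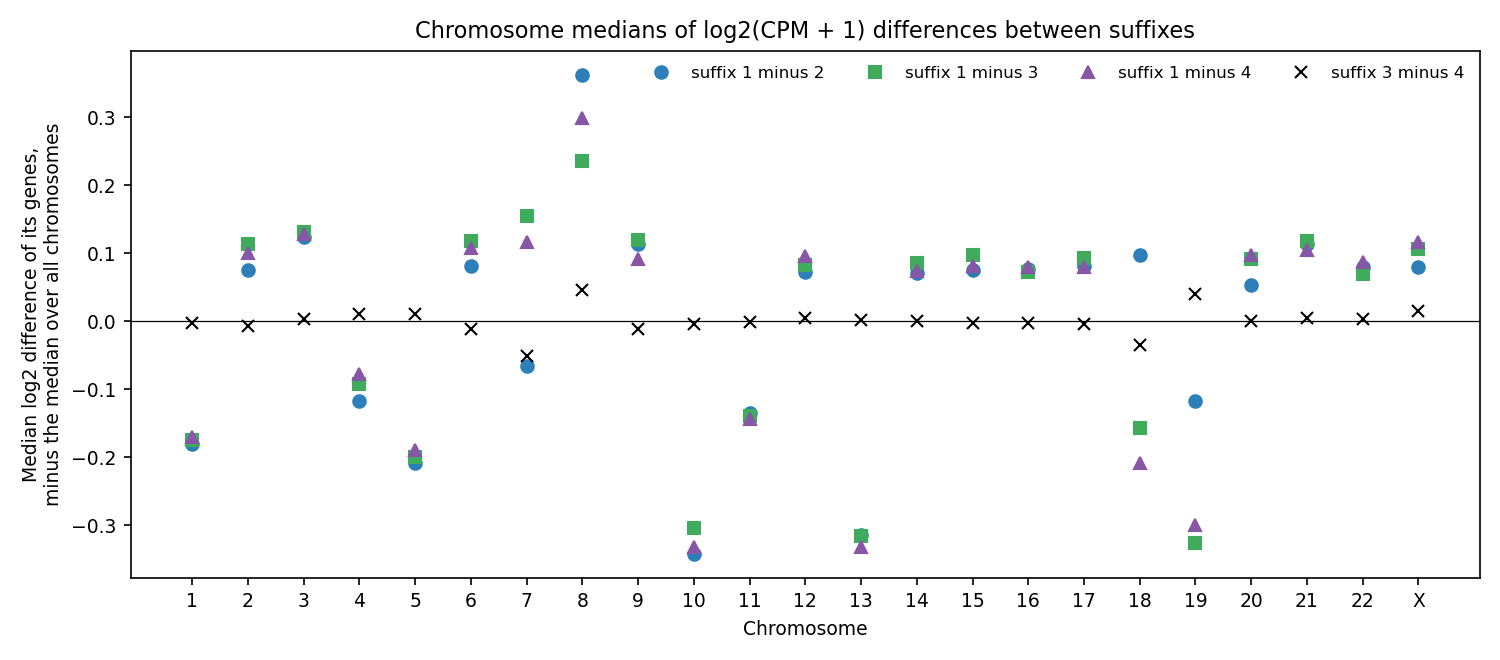
Median over each chromosome's genes of the log2(CPM + 1) difference between suffixes, minus the median over all placed genes, with 1 marker per pair of suffixes. The 3 comparisons with suffix 1 lie together on most chromosomes, high on chromosome 8 (0.36, 0.24 and 0.30) and low on 10 and 13, while suffix 3 minus suffix 4 stays near 0.

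Runs of 25 neighbouring genes showed whether a shift covered a whole chromosome. On chromosome 13 the run from TUBA3C to KATNAL1 lay at -0.37, with suffix 1 the lowest library for 24 of 25 genes. On chromosome 1 the run from NOC2L to FAM213B lay at -0.45, with 23 of 25 genes lowest, while the last runs of the chromosome lay at -0.05 and -0.02. On chromosome 4 the run from STX18 to RBPJ lay at 0.12, with 17 of 25 genes highest, and the other runs at -0.06 to -0.20. On chromosome 8 the run from TCEB1 to TMEM55A lay at 0.37 and the run from LY6E to C8orf82 at 0.10. On chromosome 12 the run from KRR1 to CRADD lay at 0.32 and the run from HNRNPA1 to CNPY2 at -0.05. So chromosomes 1 and 4 held parts that differed from the rest, and they were not alone in this.

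Cells of suffix 1 were not alike in these shares. In each cell the share of UMIs from chromosome 10 genes was taken over genes of at most 500 CPM, and suffix 1 was parted at 2.65%, the highest of the 5th percentiles of the other libraries. Below it lay 1732 suffix 1 cells (81.7%), called low-share cells here, and at or above it 389 (18.3%), while 6.30%, 5.00% and 5.30% of suffix 2, 3 and 4 cells lay below. Within 0.1 points of that value lay 29 and 49 of the suffix 1 cells. This parting is by a range and names no cell type. The low-share cells had a lower median UMI count (33233.5 against 36937) and more cells in G1 (38.1% against 20.8%). Chromosomes not used to part them moved too. The median difference of low-share cells from the others was 0.26 for chromosome 8, -0.31 for chromosome 13, -0.20 for chromosome 5 and 0.09 for chromosome 19. In suffixes 2, 3 and 4 the median chromosome 8 share hardly moved with the chromosome 10 share, at 2.78% below and 2.80% above in suffix 2, whereas in suffix 1 it was 3.88% in low-share cells and 2.95% in the others.

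**Figure D5:**
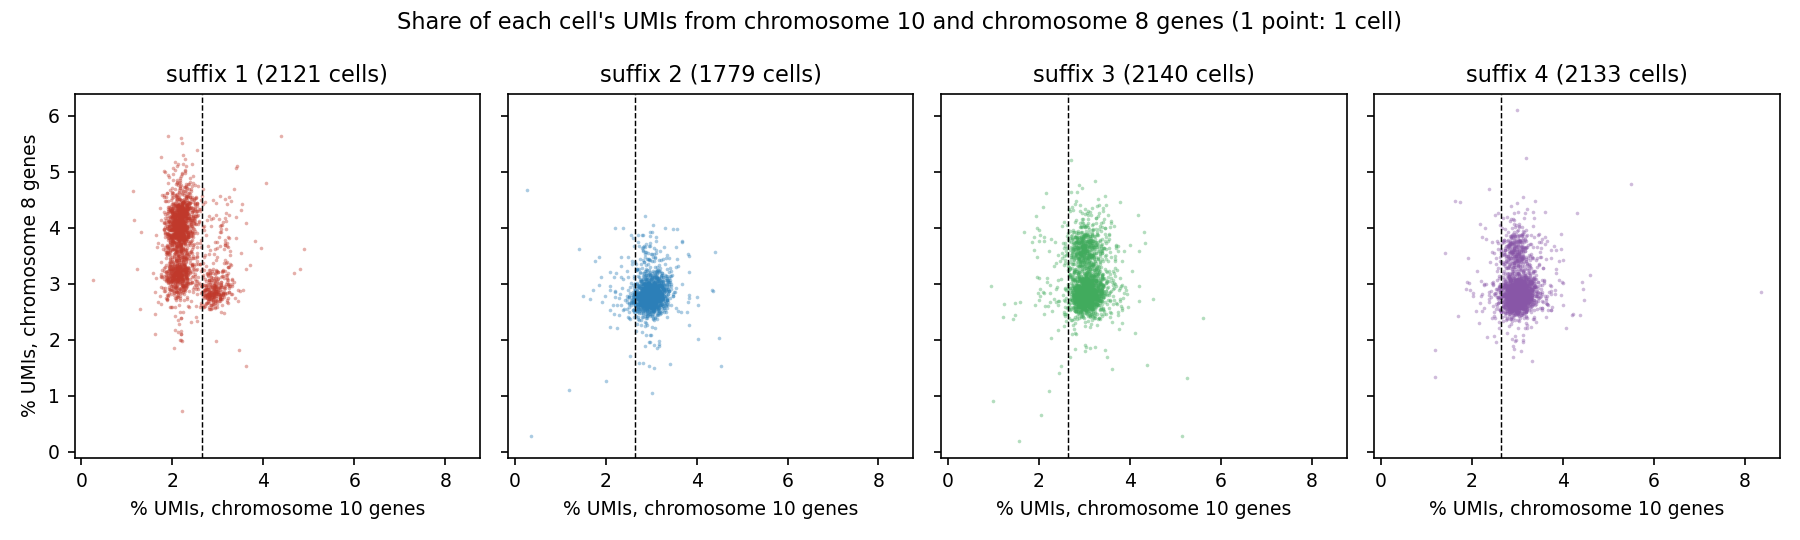
Share of each cell's UMIs from chromosome 10 genes (x axis, %) and chromosome 8 genes (y axis, %), 1 panel per suffix and 1 point per cell; the dashed line is at 2.65% for chromosome 10. Suffix 1 has most of its cells left of the line, in an upper and a lower group by chromosome 8 share, and 389 cells at or right of it, where the cells of suffixes 2, 3 and 4 lie.

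The 75 higher and 78 lower genes were called on the sum of all suffix 1 cells. Low-share cells held 57741649 of its 71617986 UMIs, so the outcome in them was largely fixed by the calling. The smaller set was part of that sum too. All 75 higher genes lay above every other library in each set, with 75 of them 2-fold above in low-share cells and 40 in the others. Of the 78 lower genes 76 lay below every other library in both sets, with 75 and 50 of them 2-fold below. BST2 was near 0 in both, with 0.520 CPM in low-share cells and 0.577 CPM in the others. APOC2 had 0.831 CPM in low-share cells and 6.49 CPM in the others. The absence of BST2 thus did not follow the chromosome 10 share. APOC2 was thus low in both sets but lower in low-share cells. Several genes differed between the sets by more than 2-fold. PAGE5 had 88.9 CPM in low-share cells and 279 CPM in the others, and SPP1 had 51.4 CPM in low-share cells and 15.3 CPM in the others. LAD1, a basement membrane anchoring protein, had 4.09 CPM in low-share cells and 20.5 CPM in the others, and TMEM163, a zinc transporter, had 20.1 CPM in low-share cells and 79.8 CPM in the others. MGST1 had 455 CPM in low-share cells and 192 CPM in the others, and FABP7 had 544 CPM in low-share cells and 247 CPM in the others. CAPG and IGFBP7 were higher in the smaller set, CAPG with 103.1 CPM in low-share cells and 247 CPM in the others and IGFBP7 with 125 CPM in low-share cells and 242 CPM in the others. HLA-DRA had 67.9 CPM in low-share cells and 34.8 CPM in the others, and MMP1 had 150.1 CPM in low-share cells and 90.4 CPM in the others. So the genes far above the other libraries did not share 1 set of cells.

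The low-share cells fell again into groups by chromosome 8. Counted in steps of 0.1 points, their chromosome 8 share peaked with 112 cells at 3.1% to 3.2%, thinned to 51 at 3.4% to 3.5% and peaked again with 146 at 4.1% to 4.2%. Parted at 3.5%, a value chosen after the shares had been seen, 1153 of the 1732 (66.6%, 95% interval 64.3 to 68.8) were chromosome 8-high, with 105 cells within 0.1 points of it. Among the other suffix 1 cells 71 of 389 (18.3%) were. Suffixes 2, 3 and 4 held 2.81%, 21.5% and 12.3% of such cells. In suffix 3 the share peaked with 301 cells at 2.8% to 2.9%, thinned to 66 at 3.2% to 3.3% and rose to 108 at 3.6% to 3.7%. In suffix 4 it peaked with 382 at 2.7% to 2.8%, thinned to 39 at 3.2% to 3.3% and rose to 67 at 3.4% to 3.5%. A further group of higher chromosome 8 share was therefore not particular to suffix 1. High and low cells of the low-share set were alike in median UMIs (33119 against 33459) and in G1 share (39.0% against 36.3%). Beside chromosome 8, which parted them, chromosomes 11 and 4 stood lower in the high cells, by medians of -0.17 and -0.10, with chromosome 18 at -0.07 and chromosome 7 at -0.01. Among the other suffix 1 cells, high and low cells were unlike in median UMIs (30165 against 38113.5) and in G1 share (42.25% against 16.04%). The part of depth and phase in the chromosome shifts of that set was not tested. In that set chromosomes 13 and 11 lay lowest, at -0.24 and -0.22, over 71 high cells. Chromosomes 1, 4, 5 and 7 lay at -0.20, -0.19, -0.15 and -0.12 there. In suffixes 3 and 4 the chromosomes that stood lower in such cells were 18 (-0.21 and -0.17) and 7 (-0.18 and -0.17), with chromosome 11 at -0.02 in suffix 3 and near 0 in suffix 4. In suffix 2 chromosome 11 lay at -0.09, over 50 such cells. Differences between libraries in these shifts were not tested.

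MMP1 followed this parting. It had 86.6 CPM in chromosome 8-high cells and 274 CPM in chromosome 8-low cells of the low-share set, and both exceed the 1.32 CPM of suffix 4. The log2 difference of MMP1, which lies on chromosome 11, was -1.65, and the part of the chromosome's shift in it was not tested. IGFBP7, on chromosome 4, had 93.8 CPM in chromosome 8-high cells and 185 CPM in chromosome 8-low cells. TMEM163 had 10.1 CPM in chromosome 8-high cells and 39.6 CPM in chromosome 8-low cells, and MYEOV had 7.71 CPM in chromosome 8-high cells and 21.3 CPM in chromosome 8-low cells. IL8, the neutrophil chemokine, had 12.9 CPM in chromosome 8-high cells and 29.3 CPM in chromosome 8-low cells. CAPG went the other way, with 114 CPM in chromosome 8-high cells and 82.7 CPM in chromosome 8-low cells, as did MGST1, with 517 CPM in chromosome 8-high cells and 336 CPM in chromosome 8-low cells. The genes higher in chromosome 8-high cells differed by less, at most 0.62 on the log2 scale among those off chromosomes 8 and 10 with at least 20 CPM. These values come from 1 library and have no replicate.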

How the data were processed

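The values are UMI counts for each gene in each cell, as deposited by the authors, per the labels' protocols from Chromium Single-cell 3' libraries, version 2. The submitters' processing notes name Cell Ranger 3.0.0, Seurat 3.0 and the genome builds hg19 and mm10, with no role for any of them. The deposited natural log values were not used. Cells were parted by the number that ends their column name, and counts were summed per suffix and scaled to CPM. No filter was applied to cells beyond that left in the table (3001 to 6999 genes per cell), doublets were not called or removed, and free RNA was not removed.

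Genes reaching 10 CPM in any suffix were set on log2(CPM + 1), and suffix 1 was measured against the nearest of the other 3. With 1 library per suffix no test was run and no p-value computed. Intervals are exact at 95% and cover counting error only. Shares of cells were taken after thinning each cell to 10000 UMIs, and phases came from scanpy 1.11.5 on the same thinned counts. Chromosomes came by symbol from RefSeq's GRCh38.p14 gene table. The counting of genes was tested on simulated sums. Named genes were the 6 markers, the 15 farthest above and 15 farthest below every other suffix (with at least 20 CPM in suffix 1, or in each other suffix) and up to 4 members of each of 46 lists. Clone-named, mitochondrial and ribosomal protein genes were left out of the ranking. The 10 genes ranked in each direction within suffix 1, and further genes named for contrast, were chosen after their values were seen. Members and lists were chosen with earlier results of these data known. Python 3.11.15, R 4.3.3 and edgeR 4.0.16 (TMM factors only, as an alternative) were used.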

Additional observations from a re-analysis of the deposited data

How the results depend on the processing

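With 1 library per suffix, the counts of 2-fold genes were recomputed under other settings, each time beside 75 higher and 78 lower. Without the filter on low genes there were 185 higher and 148 lower, and with a minimum of 50 CPM 19 and 19. A pseudocount of 10 gave 31 and 27, a 4-fold mark 20 and 24, and a 1.5-fold mark 222 and 174. Leaving out suffix 2 gave 144 higher and 120 lower, so suffix 2 was the library that most limited both counts. With only the suffix 1 cells of high chromosome 10 share there were 44 higher and 55 lower, chosen after the data were seen. TMM scaling gave 64 and 89, and the 64 were all among the 75; median-of-ratios scaling gave 67 and 86, and G1 cells alone 92 and 92. The median of all genes was 0.065 as reported and -0.01 under TMM, and the shares of genes highest and lowest in suffix 1 were 37.7% and 35.5% under median-of-ratios scaling. The actin median of 0.07 was -0.01 under TMM. Class I genes were lowest in suffix 1 for 12 of 13 and glycolysis genes highest for 12 of 19 under TMM. CTGF, at a log2 difference of 1.03, was 0.96 under TMM and 0.97 under median-of-ratios scaling, under the 2-fold mark. The hypoxia median was 0.24 to 0.27 under those scalings and without mitochondrial and ribosomal protein genes in the totals. Of 171 named genes 59 were 2-fold apart, all 59 stayed on their side of the other libraries under every setting, and 32 stayed 2-fold apart under every setting. Leaving out a suffix or changing the pseudocount cannot change a gene's side, so for those settings the side was fixed in advance. No chromosome median changed sign with a minimum of 50 CPM or in G1 cells alone. Of all 78 lower genes, 2 (TMEM163 among them) did not stay below every other library in both sets of suffix 1 cells. No paired analysis was possible because the labels give 1 library to a line and the table holds no replicate number. Depth limits genes under 10 CPM, and shares of cells near 1 UMI per 10000. Line and library cannot be told apart.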
